A study of Drosophila melanogaster with 4 samples.

Results

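Long stretches without a called domain of histone H3 mono-methylated at lysine 9 (H3K9me1) were examined on the 5 large chromosome arms of Drosophila melanogaster. The chromatin came from nuclei of Oregon-R larvae (Oregon-R-modENCODE, wild type) of the third instar. Chromatin immunoprecipitation with sequencing (ChIP-seq) was done with lot 2 of the antibody in 2 ChIP replicates, and unprecipitated chromatin from 2 input samples served as background. Every sample shares strain, genotype and stage, so the study holds no contrast between conditions. The labels name no separate collection of larvae for each replicate, so the spread between replicates may be technical. Whole larvae hold many cell types, and the files give no measure of the mark per cell.

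The authors deposited 3 lists of enriched regions, called domains here: 1 for each ChIP replicate and 1 combined list. The domains of all 3 lists on 2L, 2R, 3L, 3R and X were merged into 13149 union regions, and a gap is the uncovered stretch between a pair of neighbouring union regions. Gaps of 20000 bp or more are called long gaps. They numbered 565 of 13144 gaps (4.30%). The long gaps were thus chosen by the enrichment calls of all 3 lists, and the number, length, position and flanks of the long gaps are described here without a test.

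Lysine 9 of histone H3 can carry mono-, di- or tri-methylation. In flies the di- and tri-methylated forms are laid down by enzymes such as Su(var)3-9, eggless and G9a, are bound by heterochromatin protein HP1, and mark the heterochromatin around centromeres and much of chromosome 4. Mono-methylation is both a step on the way to those forms and a product of demethylases acting on them, and it is also found on euchromatic arms. A long gap in a map of H3K9me1 therefore does not tell whether the higher forms are present. The lists give calls and no read coverage, so sequence with little H3K9me1 and sequence to which few reads could be placed cannot be told apart. Genes and bases under the gaps were not analysed here, because no genome or annotation of the files' build, FlyBase release 5, was used.

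The long gaps were few but held much of the sequence outside union regions. They added up to 28.5 Mb, which was 23.9% of the 119 Mb of the large arms and 44.8% of all bases outside union regions. The median long gap measured 36.1 kb, whereas the median gap of any length measured 1518 bp. The quartiles of the long gaps were 26.3 and 57.5 kb. By length, 208 long gaps measured under 30 kb, 168 measured 30 to 50 kb, 140 measured 50 to 100 kb and 49 measured 100 kb or more. The 49 longest made up 8.67% of the long gaps and 26.5% of their bases.

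The minimum of 20000 bp cuts through a continuous range of lengths. The 3 long gaps nearest to it measured 20060 bp on 2L, 20137 bp on 3R and 20205 bp on 2L. The 3 gaps just under it measured 19995 bp on 2L, 19993 bp on 3R and 19989 bp on 3L.

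The arms differed in how much of their length lay in long gaps. On 2L, 127 long gaps took up 30.5% of the arm, with a median length of 41.6 kb. On 3R, 151 long gaps took up 27.5%, with a median of 36.9 kb. On 3L, 110 long gaps took up 24.7%, with a median of 37.0 kb, and on 2R, 91 took up 21.4%, with a median of 37.2 kb. X stood lowest on each of these measures, with 86 long gaps over 14.4% of its length and a median of 29.0 kb. Per Mb of sequence, 2L had 5.52 long gaps, 3R had 5.41, 3L had 4.48, 2R had 4.30 and X had 3.84. Of the 49 gaps of 100 kb or more, 2L held 19, 3R held 12, 3L held 11, 2R held 6 and X held 1. In single lists the number of such gaps on X was 42 in replicate 1, the highest of the 5 arms there, 2 in replicate 2 and 4 in the combined list. The median length of long gaps on X was 51.9 kb in replicate 1, again the highest of the 5 arms. It was 31.5 kb in replicate 2, the lowest there, and 36.8 kb in the combined list.

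**Figure D1:**
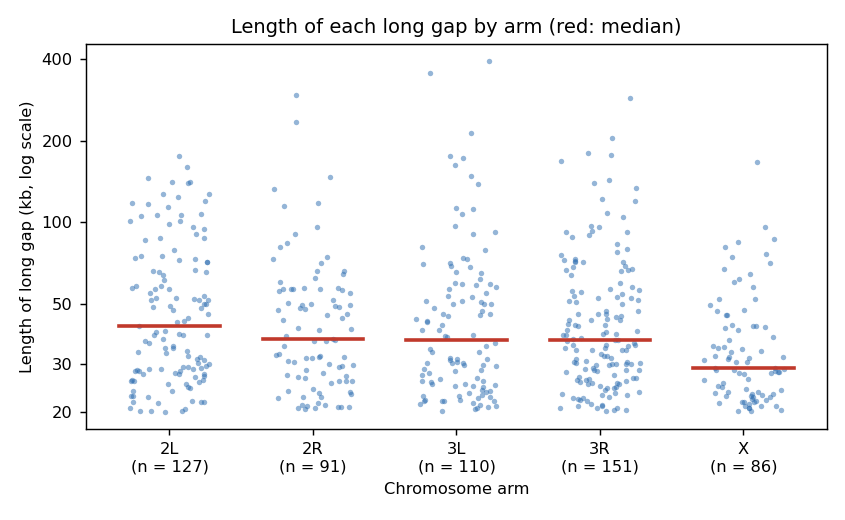
Each point is 1 long gap, with its length in kb on a log axis, by chromosome arm, and red lines mark medians. In the union of the lists, the medians of the autosomal arms lie between 36.9 and 41.6 kb. That of X lies at 29.0 kb with a single point above 100 kb, but at 51.9 kb in replicate 1 alone (not drawn).

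The low value of X in the union was not found in replicate 1. When the same rule was applied to each replicate list alone, X had 161 long gaps over 52.0% of its length in replicate 1 and 111 over 19.3% in replicate 2. In replicate 1 the share on X was thus close to that on 2L, 51.9%, and above those of the other arms, and in replicate 2 it was the lowest of the 5. In the combined list alone X was also lowest, at 21.7%, next to 24.1% for 2R. The 4 autosomal arms together had 44.2% of their length in long gaps in replicate 1 and 39.4% in replicate 2. Over the 2 replicates taken alone, the mean share for X was 35.6% ± 23.1, and that for 2L was 47.9% ± 5.63, for 3R 44.3% ± 3.15, for 3L 38.4% ± 0.35 and for 2R 36.1% ± 5.59 (SD, n = 2). The spread on X exceeded the distance between any pair of these means, so X cannot be ranked among the arms from these data. Among the autosomal arms, 2L stood above 2R, 3L and 3R in both replicates, but in replicate 2 only at 43.9% against 42.0% for 3R.

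**Figure D2:**
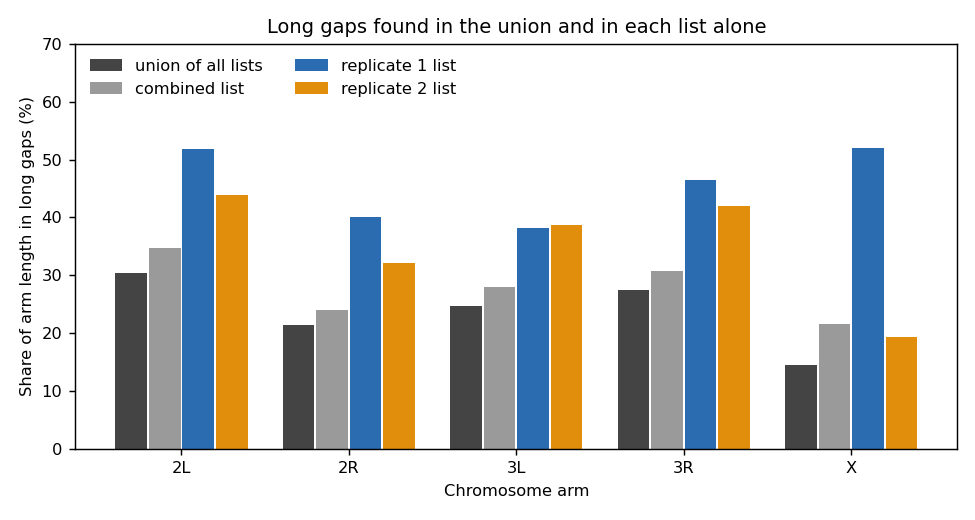
Bars give the share of each arm's length, in percent, that lay in gaps of 20 kb or more in the union of the lists and in each list alone. On X the bar of replicate 1 stands at 52.0% and that of replicate 2 at 19.3%, whereas on 3L they stand at 38.1% and 38.6%.

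Over all arms, replicate 1 alone gave 844 long gaps over 45.7% of the sequence, and replicate 2 alone gave 862 over 35.6%. The combined list alone gave 602 over 28.0%. By construction, the union leaves no base uncovered that any of the lists covers. Long gaps of replicate 1 and of replicate 2 shared 31.4 Mb, which was 57.6% of the long-gap bases of replicate 1 and 73.9% of those of replicate 2. On X the shared bases were 31.9% of those of replicate 1 and 86.0% of those of replicate 2.

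Each long gap lies inside a stretch that is uncovered in every single list, and the length of that stretch shows which list set its limits. In replicate 1 the stretch around a long gap had a median of 107 kb, and the median of the ratio of each stretch to its own gap was 2.10. In replicate 2 the median stretch was 48.6 kb and the median ratio 1.05, and in the combined list they were 50.3 kb and 1.02. The stretch was longer in replicate 1 than in replicate 2 for 451 of the 565 long gaps, and on X for 82 of 86. In replicate 1, 298 long gaps lay in a stretch at least 2 times their own length, against 68 in replicate 2. On X the median ratio was 4.31 in replicate 1 and 1.00 in replicate 2.

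The edges themselves were counted in the same way. Of the 1130 edges, 631 coincided with the edge of a domain of replicate 2, 309 with one of the combined list and 193 with one of replicate 1. The lists differed in size, with 11671 separate regions on these arms in replicate 2, 13583 in the combined list and 8259 in replicate 1. Edges and stretches of shorter gaps were not counted, so these numbers do not set long gaps apart from other gaps. Only 34 long gaps had a stretch within 1.1 times their own length in both replicates. Of these 34 gaps, 3R held 13, 2L held 11, 3L held 5, 2R held 3 and X held 2, and their median length was 66.1 kb. The list of replicate 1 held a single stretch of 402 kb, on 2R from 979698 to 1381908, that domains of the other lists broke into 7 long gaps of 20.9 to 96.3 kb. It was singled out after its values were seen, as the stretch of that list with the most long gaps.

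The other replicate gives a measure that the choice did not use. Long gaps were found in the list of replicate 1 alone, and the share of their bases inside domains of replicate 2 was counted, and the reverse. Domains of replicate 2 covered 15.3% of the bases inside the long gaps of replicate 1 and 43.6% of those outside. Domains of replicate 1 covered 11.3% of the bases inside the long gaps of replicate 2 and 42.2% of those outside. Each direction uses both lists, so the 2 directions are not independent and no error is given for them. Coverage was lower inside than outside on each of the 5 arms in both directions. With 2 replicates no permutation test over samples can reach a threshold, so none was made.

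The arms differed in how closely the replicates matched. For gaps of replicate 1, coverage by replicate 2 was 10.2% inside and 43.3% outside on 3R, 11.5% and 39.5% on 2L, 12.9% and 38.2% on 3L, and 13.2% and 46.0% on 2R. On X it was 28.3% inside and 53.1% outside, the highest ratio of the 5 arms at 0.53. For gaps of replicate 2, X had the lowest ratio: replicate 1 covered 4.52% inside and 32.8% outside, a ratio of 0.14. On the autosomal arms the ratio ran from 0.24 to 0.34 in the first direction and from 0.23 to 0.31 in the second.

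Gaps of 50 kb or more held less of the other replicate's coverage than shorter ones. In long gaps of replicate 1, replicate 2 covered 25.0% of the bases at 20 to 30 kb, 21.1% at 30 to 50 kb, 15.3% at 50 to 100 kb and 10.8% at 100 kb or more. In long gaps of replicate 2, replicate 1 covered 15.9%, 16.6%, 9.87% and 4.11% in the same classes of length. Of the 862 long gaps of replicate 2, 310 (36.0%) held no domain of replicate 1, and of the 844 of replicate 1, 74 (8.77%) held no domain of replicate 2.

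**Figure D3:**
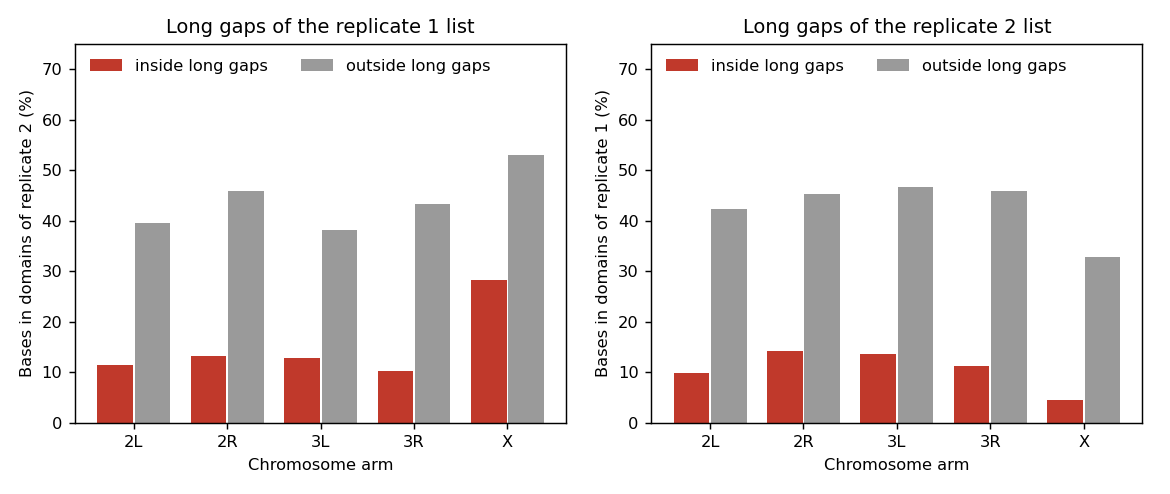
Bars give the percent of bases covered by domains of one replicate inside (red) and outside (grey) the gaps of 20 kb or more found in the other replicate alone, by arm. Inside lies below outside in all 10 pairs, where outside includes the domains of the replicate in which the gaps were found. X shows 28.3% inside in the left panel and 4.52% in the right one.

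Long gaps occurred in all 5 equal parts of each arm and were denser at the centromeric end of 4 arms. In the 2 Mb at the centromeric end of the sequence (proximal 2 Mb), long gaps took up 69.4% of 2R, 70.1% of 3L, 43.4% of 2L and 37.1% of X. In the rest of the same arms they took up 16.4%, 20.6%, 29.3% and 12.2%. On 3R they took up 13.2% of the proximal 2 Mb and 28.6% of the rest. Over the 5 arms the proximal 2 Mb made up 8.40% of the length and held 16.4% of the long-gap bases and 71 of the 565 long gaps. In each replicate taken alone this share of bases was lower, 11.2% in replicate 1 and 11.0% in replicate 2. There the proximal 2 Mb exceeded the rest on 2L, 2R and X in both replicates and stayed below it on 3R in both. On 3L it exceeded the rest in replicate 2, at 71.4% against 35.7%, but not in replicate 1, at 25.4% against 39.3%. The last domain of replicate 1 on 3L lies 1290.88 kb before the end of the sequence. That open end is no gap between 2 domains, so it was left out of the 25.4% and of the 11.2%. The low value of replicate 1 on 3L thus does not mean that its domains cover more of the proximal 2 Mb. In replicate 2 an open stretch of 489.905 kb at the start of 2R was left out in the same way.

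With each arm split into 5 equal parts, from the centromeric to the distal one, long gaps took up 29.4%, 26.1%, 23.4%, 21.5% and 19.4% of the sequence of all arms. The parts of 3R lay between 22.2% and 30.0%, and those of X between 10.6% and 17.8%. On 2L the highest share, 49.6%, was in the part next to the centromeric one, and on 2R that same part had the lowest, 8.62%, beside 39.1% in the centromeric part. Without the proximal 2 Mb, there were 492 long gaps, which took up 21.8% of the sequence.

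Windows of 1 Mb show the local range, and those named here were picked after their values were seen. The median window had 21.5% of its length in long gaps, and 7 of 117 windows had 50% or more. The highest were 3L from 23 to 24 Mb at 93.3%, 2R from 0 to 1 Mb at 85.6%, 2L from 22 to 23 Mb at 70.8% and 2L from 17 to 18 Mb at 70.4%. The first 3 of these lie at the centromeric end of their arms, and the last lies in the interior. Another interior window, 2L from 15 to 16 Mb, reached 60.0%, and 3R from 23 to 24 Mb, far from its centromere, reached 53.3%. At the other extreme, X from 19 to 20 Mb held none, 2R from 8 to 9 Mb had 1.98% and X from 18 to 19 Mb had 2.11%.

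Gaps of 100 kb or more were not confined to the centromeric ends. Of the 49, 11 had their middle in the proximal 2 Mb and 38 lay beyond. On 2L, 9 of the 19 lay between 4 and 9 Mb from the centromeric end of the sequence, a range picked after the map of the gaps had been seen. The single one on X in the union lay within its proximal 2 Mb. The 42 that replicate 1 alone had on X were not placed along the arm.

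**Figure D4:**
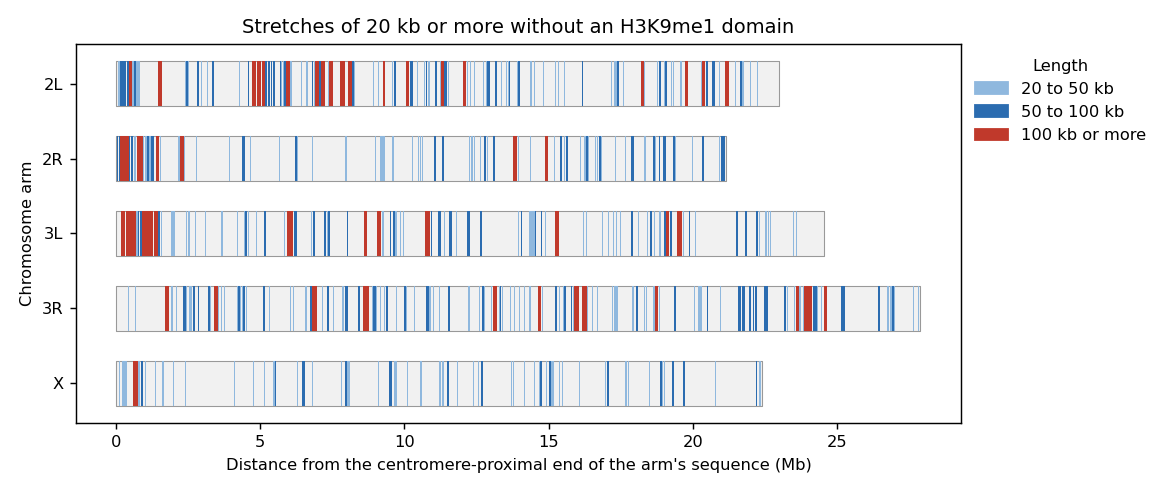
Each row is a chromosome arm drawn from its centromere-proximal end, in Mb, and coloured blocks are long gaps by class of length. Gaps of 100 kb or more crowd the first 2 Mb of 2R and 3L and a stretch of 2L from about 4 to 9 Mb, a range picked from this map, and X has 1.

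The longest gap of all lay on 3L from 23273933 to 23664822 and measured 391 kb. The uncovered stretch around it was 462 kb in replicate 2 and 391 kb in the combined list, and in replicate 1 it ran to the end of the sequence, 1290.88 kb. The second longest, on 3L from 23848649 to 24204052, measured 355 kb, with a stretch of 355 kb in replicate 2, 559 kb in the combined list and the same open end in replicate 1. Their middles lie 1.07 and 0.52 Mb from the centromeric end, and domains covered 4.95% and 3.45% of the 100 kb on either side of them.

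On 2R the longest gap ran from 135602 to 430868, 295 kb in the union. Its stretch measured 353 kb in replicate 1, 295 kb in the combined list and 489.905 kb in replicate 2, where it reached the start of the sequence. Another gap of 2R, from 707598 to 941899, measured 234 kb, with 356 kb in replicate 1, 234 kb in replicate 2 and, in the combined list, 272 kb. These gaps too lay in sparse surroundings, with 5.09% and 10.5% of the neighbouring 100 kb covered.

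The longest gaps of 3R lay in the interior or the distal part of the arm. The longest ran from 23853066 to 24139034, 286 kb, with 374 kb in replicate 1, 286 kb in replicate 2 and, in the combined list, 328 kb. It lay 24.0 Mb from the centromeric end. The gap from 8571140 to 8775734 measured 205 kb, and its stretch was 235 kb in replicate 1, 206 kb in replicate 2 and, in the combined list, 210 kb. It differed from the named gaps near the centromeric ends of 3L and 2R in its surroundings, since domains covered 64.9% of the 100 kb on either side. A pair of neighbours on 3R, from 15883934 to 16060754 (177 kb) and from 16153660 to 16333495 (180 kb), had 43.4% and 60.5% of their surroundings covered.

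The other named gaps differed in how closely the lists matched. On 3L the gap from 18399793 to 18612120 measured 212 kb in the union, 212 kb in replicate 1, 216 kb in replicate 2 and, in the combined list, 212 kb. The longest gap of 2L, from 15068419 to 15244217, measured 176 kb in the union, 194 kb in replicate 1, 176 kb in replicate 2 and, in the combined list, 177 kb. The longest on X, from 21682286 to 21849714, measured 167 kb in the union and 167 kb in replicate 2, but 366 kb in replicate 1 and 349 kb in the combined list.

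Long gaps tended to lie next to each other. Of 563 long gaps that were followed by another gap on the arm, 117 (20.8%) were followed by a long one, while 4.30% of all gaps were long. On each arm the share exceeded that among all gaps of the arm, with 28.3% beside 5.32% for 2L, 21.1% beside 4.03% for 2R, 21.1% beside 4.17% for 3L, 17.2% beside 5.20% for 3R and 15.1% beside 2.90% for X. Within 10 kb of another long gap lay 247 of the 565 (43.7%), in 100 runs of 2 to 6 gaps, and 318 stood alone. In the lists of single replicates, 319 of 844 long gaps (37.8%) in replicate 1 and 431 of 862 (50.0%) in replicate 2 lay that close to another. Long gaps were 10.2% and 7.39% of all gaps in those lists. What share would lie within 10 kb from the density of long gaps alone was not computed. Between successive long gaps of an arm the median distance was 66.7 kb, with quartiles of 8.08 and 211 kb, and the widest distance was 1668 kb, on X.

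A pair of runs held 6 long gaps each. On 2L the run from 22189572 to 22428032 spanned 238 kb, of which 96.4% was gap, near the centromeric end. Domains covered 0.85% of it in replicate 1, 2.75% in replicate 2 and 1.34% when taken from the combined list. On 3L the run from 9938984 to 10183247 spanned 244 kb, of which 91.8% was gap, 14.5 Mb from the centromeric end. Domains covered 1.58% of it in replicate 1, 4.07% in replicate 2 and 3.67% when taken from the combined list.

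The largest runs of the other arms held fewer gaps. The widest of the 3 runs of 4 gaps on 2R, from 19120 to 489905, spanned 471 kb with 99.0% in gaps. On 3R a run of 4 gaps, from 26739509 to 26876021, spanned 137 kb, and replicate 1 had no domain in it. On X the run of 3 gaps from 7249209 to 7417549 spanned 168 kb, and replicate 1 had no domain in it either.

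The union regions that part neighbouring long gaps were small and rested on few lists. There were 117 of them, with a median length of 1755 bp. Of these, 64 (54.7%) were found in 1 list only, 47 in 2 lists and 6 (5.13%) in all 3. Of the 64, 51 came from replicate 2 alone, 11 from the combined list alone and 2 from replicate 1 alone.

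The same held for the flanks of the long gaps as a whole. The 1013 union regions next to a long gap had a median length of 1851 bp, against 2490.5 bp for the other 12136. Their quartiles were 1466 and 2619 bp, against 1643.75 and 4720.75 bp for the others. Regions of 10 kb or more made up 2.86% of the flanks and 8.76% of the others. The median was lower in flanks on each arm, with 1906 against 2341 bp for 2L, 1790 against 2633.5 bp for 2R, 1818 against 2496 bp for 3L, 1875 against 2466 bp for 3R and 1843 against 2532 bp for X.

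Flanks also rested on fewer lists. All 3 lists had a domain in 15.6% of the flanks and in 37.7% of the other union regions, and 39.1% of the flanks and 21.0% of the others rested on 1 list. Flanks were shorter than the others, and these shares were not matched for length. A domain of replicate 1 was present in 31.3% of the flanks and in 57.2% of the others. For replicate 2 the shares were close, 68.8% of the flanks and 68.2% of the others. On X, replicate 1 had a domain in 17.0% of the flanks and 44.9% of the others, and replicate 2 in 85.5% and 79.5%. Of the 565 long gaps, 16 had both flanks in all 3 lists and 102 (18.1%) had both flanks in a single list.

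**Figure D5:**
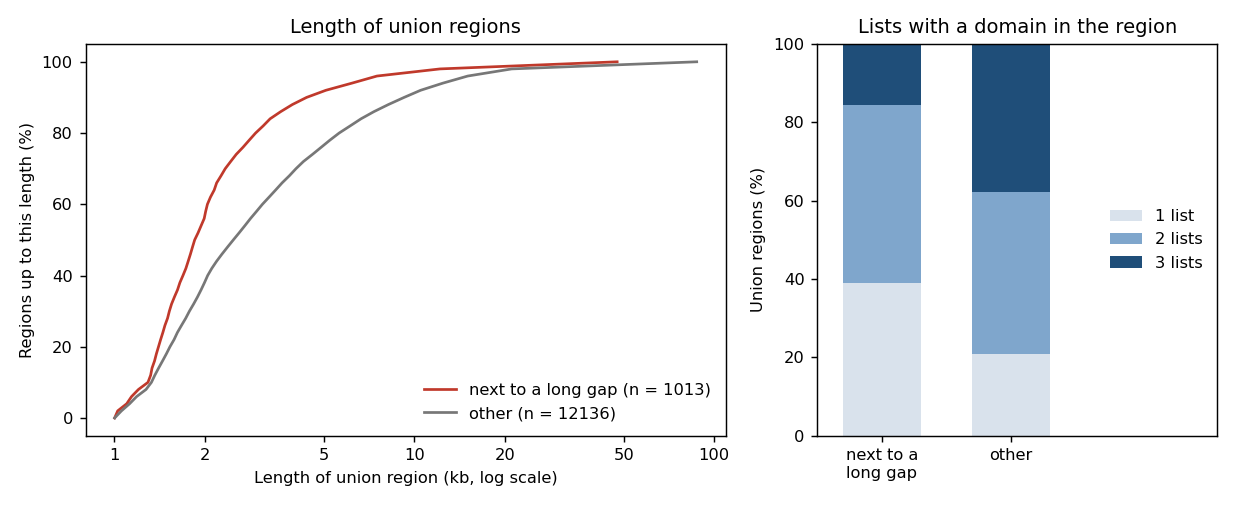
The left panel gives the cumulative percent of union regions by length in kb on a log axis, for regions next to a long gap (red) and for all others (grey). The right panel stacks the percent of regions found in 1, 2 or 3 lists, not matched for length. The band of 3 lists is 15.6% next to a long gap and 37.7% elsewhere.

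The length of a long gap and that of its flanks were not related in an ordered way. The median flank measured 1872 bp at gaps of 20 to 30 kb, 1866 bp at 30 to 50 kb, 1777.5 bp at 50 to 100 kb and 1811.5 bp at 100 kb or more. Domains of the union covered a median of 43.3% of the 100 kb on either side of gaps of 20 to 30 kb, 37.8% at 30 to 50 kb, 39.7% at 50 to 100 kb and 34.3% at 100 kb or more, beside 46.6% of the arms as a whole. These values are not in order of length throughout, but the lowest was at 100 kb or more. That class was also lowest on 2L, at 29.6%, on 2R, at 34.4%, and on 3L, at 27.3%. On 3R the lowest, 36.3%, was at 30 to 50 kb, with 41.3% at 100 kb or more. On X the lowest, 38.2%, was at 30 to 50 kb too, with 38.6% at the 1 gap of 100 kb or more. Long flanks were rare: 29 long gaps had a flank of 10 kb or more. Exactly 1 had such flanks on both sides, on 3L from 21349741 to 21371771, a gap of 22.0 kb between regions of 14171 and 19185 bp that all 3 lists hold; it was picked after its values were seen.

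Scores of the flanking domains were compared within each list, because the authors' score has no stated scale. In the combined list the median score was 0.360 in the 830 domains of flanks and 0.391 in the other 12766. In replicate 1 it was 0.558 in 338 domains of flanks and 0.591 in the others, and in replicate 2 it was 0.543 in 770 and 0.575 in the others. The interquartile ranges overlapped in all 3 lists, at 0.295 to 0.440 in flanks against 0.311 to 0.529 elsewhere in the combined list. Among domains of like length the direction was not the same throughout. In domains under 2 kb the median was 0.326 in flanks against 0.316 elsewhere in the combined list, 0.428 against 0.425 in replicate 1 and 0.469 against 0.449 in replicate 2. In domains of 2 to 5 kb it was 0.449 against 0.441 in the combined list, 0.616 against 0.635 in replicate 1 and 0.619 against 0.643 in replicate 2. In domains of 5 kb or more it was 0.691 against 0.707, 0.931 against 0.972 and 0.796 against 0.843 in the same order of lists.

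Arms followed the same direction with 1 exception. The median score was lower in flanks than elsewhere on each arm in the combined list and in replicate 2. On 2L in replicate 2 the medians were nearly equal, at 0.5388 against 0.5398. In replicate 1 the median was lower in flanks on 2L, 2R, 3L and X, though on 3L only at 0.575 against 0.579. On 3R it was 0.578 in flanks against 0.562 elsewhere. The flank with the highest score in the combined list, 2.16, lay on 3R from 3533316 to 3535183, a region of 1868 bp beside a long gap of 38.3 kb. Neither replicate list had a domain in it.

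Regions that the authors listed as depleted of H3K9me1 were not used to find the gaps. Of 62 such regions in the 3 lists, 59 lay on the large arms, and 1 of these (1.69%) lay inside a long gap, beside the 23.9% of the arms that long gaps make up. It came from the list of replicate 1 and lay on 2L from 22246706 to 22248324. Of the 59, 46 overlapped a union region and could not lie in a gap, so the shares of 1.69% and 23.9% cannot be compared directly. With gaps taken from a single replicate list, 11 of the 59 lay in long gaps of replicate 1, which make up 45.7% of the arms, and 7 in those of replicate 2, which make up 35.6%. Depleted regions that overlapped domains of the same single list could not lie in its gaps either, and their number was not counted.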

How the data were processed

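ChIP and input samples were grouped, and replicates numbered, by their titles. Per the labels, input replicates 1 and 2 were the backgrounds of ChIP replicates 1 and 2. The submitters' processing notes name Bowtie 0.12.7. Coordinates are on FlyBase release 5, per the file headers. Values carry no counting error, because no read depth was given in the sources used here. The region caller, its thresholds and how the combined list was made were not stated there either. The authors deposited a score with each region, of unstated scale, used here only within a list.

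Domains of the 3 lists were merged where they overlapped or touched, and gaps, distances and shares were computed in Python 3.11.15 with numpy 2.4.6. Uncovered stretches at sequence ends were left out. The centromeric end of the sequence is the start of 2R and 3R and the end of 2L, 3L and X. Distances were taken to that end of the sequence, not to the centromere itself. The gap search was tested on 20 simulated arms and gave back each planted gap. The named regions are the 10 longest gaps, the longest gap and run of gaps on each arm, the 3 gaps on each side of the minimum, and the flank with the highest combined score. The gaps and lists were chosen with earlier results of these data known. Several measures were added once the files had been read, some after first results had been seen: equal parts and windows of the arms, the share of long gaps followed by another, the surroundings, stretches and edges of gaps, scores by domain length, coverage by gap length, and gaps of 100 kb or more by position. Alternatives covered the minimum gap length, the lists merged, each replicate alone, the score and length of domains, the proximal extent and the clustering distance.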

Additional observations from a re-analysis of the deposited data

How the results depend on the processing

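Values were recomputed under each alternative and counted as moved past 1.5 times for counts and past 1 SD between the values of the 2 replicate lists otherwise. Of 101 alternative values for 13 results, 58 did not move by this measure and 43 did. For the share of long-gap bases in the proximal 2 Mb the SD was only 0.17 percentage points. Each alternative of that share thus counted as moved, also where it lay near the main value. Ranges for single replicates below give both values, whether or not each counted as moved. The number of long gaps (565) was 357 at a minimum of 30000 bp, 887 with domains that score at least the median of their list (high scores below), and 844 to 862 in single replicates. Their share of the arms (23.9%) was 39.6% with high scores, 37.6% with domains of 2000 bp or more, and 35.6% to 45.7% in single replicates. Removing domains or lists can only widen an uncovered stretch, but a stretch that then reaches a sequence end is left out. Their median length (36.1 kb) was 27.9 kb at a minimum of 15000 bp, 51.2 kb at 30000 bp, and 35.2 to 42.3 kb in single replicates. The number within 10 kb of another (247) was 388 at 15000 bp, 117 at 30000 bp, 412 with high scores, and 319 to 431 in single replicates. The share of long-gap bases in the proximal 2 Mb (16.4%) was 10.3% for the proximal 1 Mb, 20.2% for 3 Mb, 15.4% at 15000 bp, 17.2% at 30000 bp, 15.2% without the combined list, 15.0% in the combined list, 12.7% with high scores, 13.3% from 2000 bp, and 11.0% to 11.2% in single replicates. The median flank (1851 bp) was 1602 bp in the combined list, 2911.5 bp with high scores, 3124 bp from 2000 bp, and 1900 to 2095 bp in single replicates. The median combined score of flanks (0.360) was 0.480 with high scores and 0.465 from 2000 bp, and could not be had without the combined list. Depleted regions in long gaps (1), whose alternatives were chosen after seeing the data, numbered 0 without the proximal 2 Mb, 6 in the combined list, 15 with high scores, 13 from 2000 bp, and 7 to 11 in single replicates. Where the score or length of domains was restricted, fewer domains remained by construction; the cause of the other moves was not tested. The mean over both directions of the coverage by the other replicate inside long gaps (13.3%) was 11.8% to 13.9%, judged by the SD between directions that share both lists. Coverage by replicate 1 in gaps of replicate 2 (11.3%) was 10.2% to 12.4%, and coverage by replicate 2 in gaps of replicate 1 (15.3%) was 11.3% with high scores, 12.3% from 2000 bp and otherwise 13.9% to 16.0%. No paired analysis was possible because only ChIP samples have lists, and the values come from no test between groups. Unknown read depth limits every call of a gap.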

Other observations

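Uncovered sequence at the ends of the arms was left out of the long gaps. Of the 10 ends, 5 were uncovered over 20 kb or more in the union of the lists. The widest was the centromeric end of 3L, at 168 kb, followed by the distal end of 3L at 52.2 kb, the distal end of 2R at 30.3 kb, the centromeric end of 2L at 25.6 kb and its distal end at 21.4 kb. On 3R a union region began at the first base of the sequence, and on X the last union region ended 0.185 kb before the end.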
